A study of Mus musculus with 23 samples.

Results

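The 9 primary tumors of this study were divided by the circadian state of the liver taken from the same mouse. The groups were chosen by a liver measurement alone: a tumor was placed in the late group when the paired liver had 20 RPKM or more of *Dbp*, and in the early group otherwise, where RPKM is the read count of a gene scaled by the length of the gene and by the total counts of its library. This gave 4 late tumors (mice M1, M2, M10 and M12) and 5 early tumors (mice M4, M5, M6, M7 and M8), 9 of the 23 libraries of the series. The other libraries were the 9 pre-metastatic livers of these mice, which set the groups, and 5 livers of mice without tumor. The mice without tumor had a sham operation, with medium injected in place of cells. All 9 tumors were primary colon tumors grown in male BALB/c mice by injecting CT26, a mouse colon carcinoma line, beneath the cecal serosa, and were taken with the liver 3 weeks later, so that late and early tumors shared strain, cell line, site and schedule. The animals were 4 to 6 weeks old when the model was made. The names late and early refer only to the *Dbp* level of the liver: the hour of collection is not given in the sources used here. Which part of each tumor was sequenced, such as margin or center, is not given either. With 1 tumor from each mouse, an effect of the hour cannot be told apart from any other difference between the 2 sets of mice.

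The circadian clock is a transcriptional loop that runs in nearly every cell of the body. The activators CLOCK and BMAL1 (gene *Arntl*) switch on genes through the E-box, among them *Per*, *Cry* and *Nr1d1*, whose products then hold the activators down. REV-ERB alpha and beta (*Nr1d1* and *Nr1d2*) repress *Arntl* through the ROR element, and the PAR bZIP factors DBP, TEF and HLF act on output genes through the D-box, where NFIL3 opposes them. In mouse liver *Dbp* is among the genes of largest daily amplitude, it is highest late in the light phase, and *Arntl* runs nearly opposite to it, which is why a single liver sample can be placed in the cycle.

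Liver *Dbp*, the value that formed the groups, was 84.1, 81.8, 73.1 and 30.9 RPKM in late mice M1, M2, M10 and M12. It was 0.631, 7.63, 3.99, 6.29 and 0.371 RPKM in early mice M4, M5, M6, M7 and M8. The liver just inside the threshold was that of M12 at 30.9 RPKM and the liver just outside it was that of M5 at 7.63 RPKM, and livers of mice without tumor ranged from 0.945 to 49.1 RPKM. Other liver genes were not used by the rule, but they come from the livers that formed the groups and are given here as a description. The 19 clock genes came from 3 lists (activators, repressors, and PAR bZIP factors with *Nfil3*). Of these, 11 had livers that did not overlap between late and early mice, 8 with late livers above and 3 with late livers below. *Dbp* is among the 8 by the rule itself. The share of all liver genes without overlap is not given here, so these counts have no background to be read against. Liver *Arntl* was 0.106 to 0.193 RPKM in late mice and 1.37 to 4.12 RPKM in early mice, and liver *Per3*, a period repressor, was 2.48 to 4.56 against 0.0203 to 0.678 RPKM. Liver *Nr1d1* overlapped, at 5.28 to 27.5 RPKM in late and 4.21 to 17.2 RPKM in early mice.

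The members of the clock loop are tied together by 3 short elements, for which their promoters were searched. Of the 19 genes, 17 had at least 1 promoter of 300 bases (250 before and 50 after the start) in RefSeq on GRCm38.p6, and *Per2* and *Bhlhe40* had no entry. The letters searched on both strands were CACGTG for the E-box, TTATGTAA for the D-box and TAGGTCA for the ROR element. Over all 32851 promoters of this length, 7.15% held the E-box, 0.938% the D-box and 2.61% the ROR element. These shares are per promoter, whereas the clock matches are given per gene, and the 17 genes had 23 promoters. A gene with more than 1 promoter has more chances of a match, so the shares and the gene counts are unlike measures. The E-box was found in *Bhlhe41*, *Ciart*, *Cry1*, *Per1* and *Tef*, the D-box in *Per3*, and the ROR element in *Arntl* and *Nfil3*. Printed here 5′ to 3′ on the strand of the gene, with matches in capitals, are promoters that held a match among the 6 clock genes whose tumor levels did not overlap between the groups, and that of *Dbp*, the gene whose liver level formed them. They are *Tef* with an E-box at chr15:81802423-81802722 (plus strand), *Per3* with 2 D-boxes at chr4:151044616-151044915 (minus strand), *Arntl* with a ROR element at chr7:113207261-113207560 (plus strand), and *Dbp*, with no match in this window, at chr7:45704997-45705296 (plus strand). The promoters of *Nr1d1* and *Nr1d2* and another promoter of *Arntl* held no match, and another of *Tef* held an E-box, and these are not printed.
Tef: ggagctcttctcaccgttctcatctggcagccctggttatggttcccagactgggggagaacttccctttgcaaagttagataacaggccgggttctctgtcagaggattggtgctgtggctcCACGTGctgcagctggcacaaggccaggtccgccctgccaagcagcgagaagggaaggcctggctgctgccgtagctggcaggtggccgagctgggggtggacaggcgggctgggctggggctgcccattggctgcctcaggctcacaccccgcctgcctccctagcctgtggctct
Per3: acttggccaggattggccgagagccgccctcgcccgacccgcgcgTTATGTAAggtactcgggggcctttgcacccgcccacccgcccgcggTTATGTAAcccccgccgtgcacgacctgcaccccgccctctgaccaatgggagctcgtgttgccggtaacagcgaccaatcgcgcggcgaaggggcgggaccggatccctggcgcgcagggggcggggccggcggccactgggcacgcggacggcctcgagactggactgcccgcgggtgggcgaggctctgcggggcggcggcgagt
Arntl: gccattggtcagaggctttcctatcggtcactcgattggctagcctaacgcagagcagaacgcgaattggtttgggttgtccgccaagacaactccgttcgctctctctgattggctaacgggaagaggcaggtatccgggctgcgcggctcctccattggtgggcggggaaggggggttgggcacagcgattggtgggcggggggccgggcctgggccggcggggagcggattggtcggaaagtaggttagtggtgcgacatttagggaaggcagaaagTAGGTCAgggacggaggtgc
Dbp: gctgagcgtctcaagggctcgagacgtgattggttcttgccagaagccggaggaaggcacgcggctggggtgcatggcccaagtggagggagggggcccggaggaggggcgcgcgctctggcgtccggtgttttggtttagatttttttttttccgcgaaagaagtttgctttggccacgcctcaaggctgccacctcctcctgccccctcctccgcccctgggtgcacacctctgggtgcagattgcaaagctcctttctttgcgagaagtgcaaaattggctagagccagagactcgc

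The late and early tumors were compared over the 18332 genes that reached 10 counts in 4 or more of the 9 tumors, by edgeR's quasi-likelihood test with Benjamini-Hochberg adjustment. No gene passed an adjusted *p* of 0.05, so 0% of the genes tested were called, and the smallest adjusted *p* was 0.127, shared by 51 genes. An unadjusted *p* under 0.05 was found for 1271 genes, 6.93% of those tested, 653 of them higher and 618 lower in late tumors. The normalized counts (CPM, scaled by TMM) of late and early tumors did not overlap for 491 genes, 2.68% of those tested, with late above early for 278 and late below early for 213. The log2 fold change, late over early, was positive for 48.5% of genes. DESeq2, run as an alternative test, called 182 genes, 0.994% of the 18307 to which it gave an adjusted *p*, 138 higher and 44 lower in late tumors. Since edgeR called none, differences of single genes are given below as values with the standard error (SE) of the fit.

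A larger share of the clock genes than of all genes had a small *p*. Of the 17 clock genes tested (*Npas2* and *Rorb*, at 0 to 20 and 0 to 3 counts per tumor, were below the filter), 11 had an unadjusted *p* under 0.05 against 6.93% of all genes, 9 with late tumors higher and 2 with late tumors lower. The 6 genes *Dbp*, *Tef*, *Per3*, *Nr1d1*, *Nr1d2* and *Arntl* did not overlap between the groups, against 2.68% of all genes, and DESeq2 called the same 6 genes. The median log2 fold change of the clock genes was 0.74, beside -0.01 over all genes tested, and it was 0.42 without the tumor of M12. The grouping used the liver alone, so that these tumor values are separate measurements, although earlier results on these data had already shown a difference in tumor clock genes and they are no independent support for it.

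**Figure D1:**
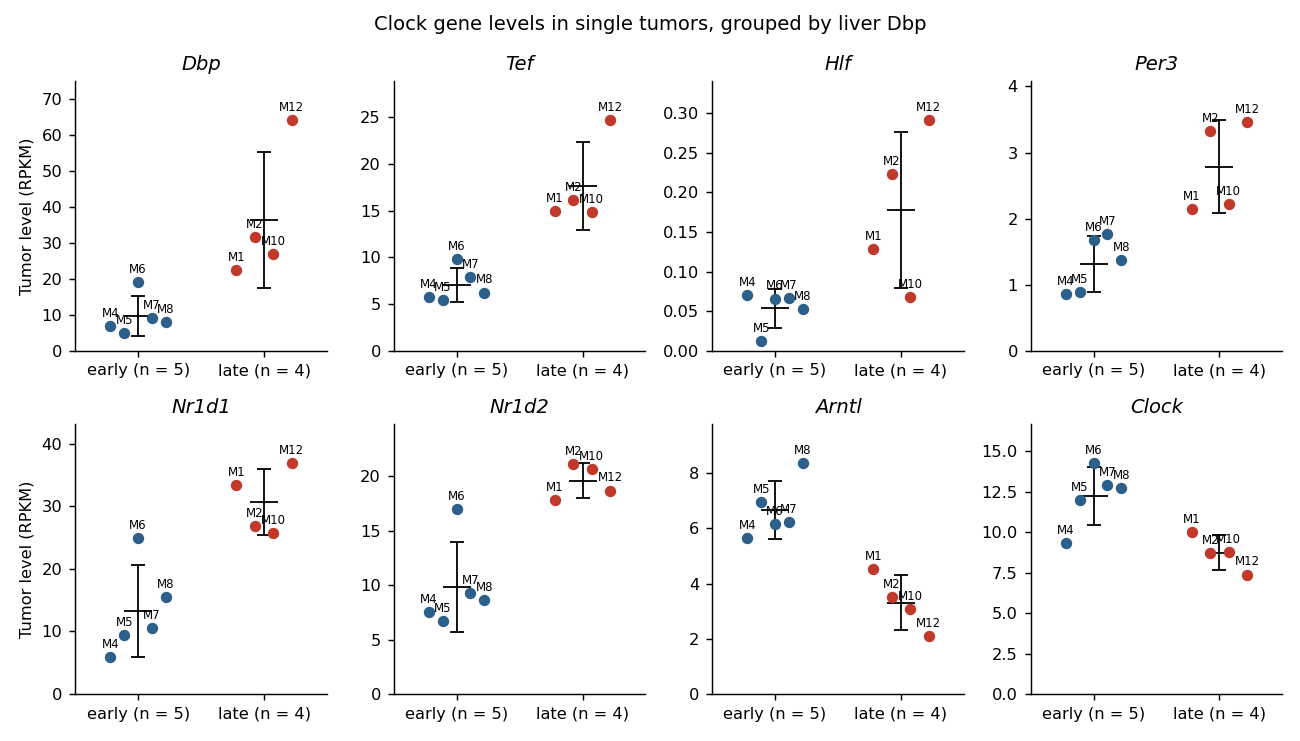
RPKM of 8 clock genes in each tumor (points, labelled by mouse), with the mean and SD of the 5 early and the 4 late tumors (black bars); each panel has its own vertical axis from 0. *Dbp*, *Tef*, *Per3*, *Nr1d1* and *Nr1d2* are higher in every late tumor than in every early tumor, *Arntl* is lower, and *Hlf* and *Clock* overlap.

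Among the PAR bZIP factors, tumor *Dbp* (chr7:45705093-45710203, plus strand) was 22.5, 31.7, 26.9 and 64.1 RPKM in late tumors M1, M2, M10 and M12, and 6.73, 4.93, 19.1, 9.18 and 7.89 RPKM in early tumors M4, M5, M6, M7 and M8. The late tumors were all above the early ones, M12 was the highest, and M6 came nearest to the late group. The means were 36.3 ± 18.9 (SD, n = 4) and 9.56 ± 5.55 RPKM (SD, n = 5), a log2 fold change of 1.94 ± 0.40 (SE). *Tef* (chr15:81802673-81826863, plus strand) was 14.9, 16.1, 14.8 and 24.7 RPKM in late tumors M1, M2, M10 and M12, and 5.74, 5.42, 9.78, 7.86 and 6.23 RPKM in early tumors M4 to M8. Its log2 fold change of 1.35 ± 0.20 (SE) had the smallest unadjusted *p* of any clock gene, 3.78e-05, with an edgeR adjusted *p* of 0.127. *Hlf* was scarce, at 0.129, 0.223, 0.068 and 0.291 RPKM in late tumors and at 0.0119 to 0.0708 RPKM in early tumors, from 4 to 92 counts per library. Late tumor M10 lay within the early range, and the log2 fold change was 1.73 ± 0.52 (SE). *Nfil3*, the repressor at the same element, was 3.57 to 6.49 RPKM in late and 5.25 to 8.66 RPKM in early tumors, with a log2 fold change of -0.41 ± 0.20 (SE).

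Of the 10 repressors, the REV-ERB genes and *Per3* separated the groups. *Nr1d1* (chr11:98767932-98775377, minus strand) was 33.3, 26.8, 25.8 and 36.9 RPKM in late tumors M1, M2, M10 and M12, and 5.97, 9.43, 24.9, 10.6 and 15.6 RPKM in early tumors M4 to M8, a log2 fold change of 1.23 ± 0.34 (SE). Early tumor M6 was within 1 RPKM of late tumor M10. *Nr1d2* (chr14:18204056-18239106, minus strand) was 17.8, 21.2, 20.7 and 18.7 RPKM in late tumors, and 7.50, 6.66, 17.0, 9.24 and 8.65 RPKM in early tumors, again with M6 nearest to the late group, and its log2 fold change was 1.01 ± 0.23 (SE). *Per3* (chr4:150997018-151044723, minus strand) was 2.15, 3.32, 2.22 and 3.46 RPKM in late tumors and 0.861, 0.889, 1.68, 1.77 and 1.37 RPKM in early tumors, a log2 fold change of 1.09 ± 0.24 (SE). M6 and M7 were the highest of the early tumors and M1 the lowest of the late ones.

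The other repressors overlapped between the groups. *Per1*, a period gene that also responds to glucocorticoid and growth signals, was 6.81 to 13.4 RPKM in late and 3.06 to 11.0 RPKM in early tumors, with a log2 fold change of 0.76 ± 0.39 (SE), and *Per2*, its partner, was 2.24 to 6.28 against 1.29 to 3.38 RPKM, with 0.75 ± 0.34 (SE). *Ciart*, a CLOCK repressor, was 2.88 to 6.24 RPKM in late and 1.68 to 3.71 RPKM in early tumors (log2 fold change 0.74 ± 0.27, SE). The 2 cryptochromes, partners of the PER proteins, had differences of opposite sign: *Cry2* had a log2 fold change of 0.47 ± 0.18 (SE) and *Cry1* one of -0.43 ± 0.25 (SE), *Cry2* with and *Cry1* without an unadjusted *p* under 0.05. *Bhlhe40* and *Bhlhe41*, bHLH repressors, had log2 fold changes of -0.11 ± 0.29 and 0.00 ± 0.23 (SE).

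Of the activators, *Arntl* (chr7:113178470-113314126, plus strand) was 4.54, 3.52, 3.07 and 2.11 RPKM in late tumors M1, M2, M10 and M12, and 5.64, 6.94, 6.17, 6.25 and 8.36 RPKM in early tumors M4 to M8. Every late tumor was below every early tumor, M12 was the lowest and M8 the highest, and the log2 fold change was -0.99 ± 0.21 (SE; edgeR adjusted *p* = 0.158). *Clock*, the partner of BMAL1, was 7.39 to 10.03 RPKM in late and 9.36 to 14.3 RPKM in early tumors, a log2 fold change of -0.47 ± 0.13 (SE), and the groups overlapped through early tumor M4 and late tumor M1. *Rora*, an activator of *Arntl* at the ROR element, was at or below 0.157 RPKM in every tumor, with a log2 fold change of -0.47 ± 0.31 (SE).

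DESeq2 gave the smallest adjusted *p* among the alternatives run for each of the 6 genes without overlap: 7.21e-07 for *Tef*, 0.000928 for *Arntl*, 0.00304 for *Per3*, 0.00438 for *Nr1d2*, 0.00718 for *Dbp* and 0.0187 for *Nr1d1*. The largest adjusted *p* was 0.9999 for each of them, in the edgeR fit with hepatocyte markers as a term. Those markers, described below, also separated the groups, so that fit cannot tell the group apart from the marker level. With the tumor of M1 left out, edgeR called *Arntl* and *Tef*, and with that of M6 left out it called *Nr1d2*. The log2 fold change with any 1 tumor left out stayed between 1.52 and 2.34 for *Dbp*, 1.14 and 1.49 for *Tef*, 0.97 and 1.22 for *Per3*, 1.04 and 1.57 for *Nr1d1*, 0.90 and 1.30 for *Nr1d2*, and -1.20 and -0.83 for *Arntl*.

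Some clock genes overlap a neighbor in the genome, and it is not given whether reads were assigned by strand. *Dbp* overlaps the end of *Sphk2* (chr7:45709463-45718002, minus strand), a sphingosine kinase on the other strand, which was 10.6, 13.99, 11.1 and 17.9 RPKM in late tumors and 8.19 to 10.4 RPKM in early tumors, with a log2 fold change of 0.58 ± 0.15 (SE). *Nr1d1* overlaps *Thra* (chr11:98741776-98769006, plus strand), a thyroid hormone receptor, with a log2 fold change of 0.29 ± 0.14 (SE). Of the other genes without overlap between the groups, *Per3* overlaps *Uts2*, and *Arntl* overlaps *Gm33721* and another annotated gene. *Clock*, *Rora*, *Per2*, *Cry2*, *Ciart*, *Bhlhe40* and *Bhlhe41* also have such neighbors, and the values of these neighbors are not given here. Reads of such neighbors cannot be told apart where the genes overlap. *Sphk2* and *Thra* were chosen after their values were seen.

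**Figure D2:**
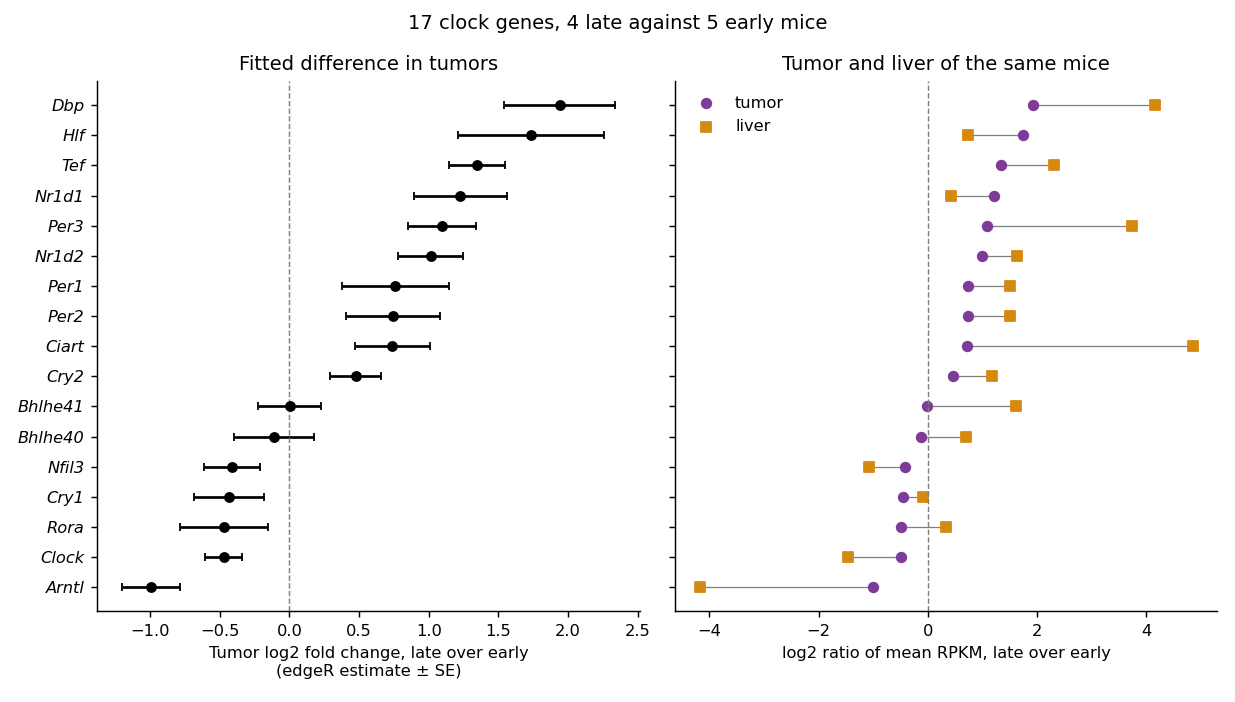
Left, the tumor log2 fold change (late over early) of the 17 clock genes tested, with its SE; right, the log2 ratio of mean RPKM, late over early, in tumor (circles) and in liver (squares) of the same mice, the liver without SE because livers formed the groups. The liver ratio is the larger in size for 13 of 17 genes, *Dbp* included, with *Nr1d1* and *Hlf* among the exceptions.

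Set beside the livers of the same mice, the log2 ratio of mean RPKM had the same sign in tumor and liver for 14 of the 17 clock genes. It was larger in size in liver for 13 of the 17. *Dbp*, whose liver level formed the groups, is in both counts, and the shares over all genes are not given here. For *Dbp* the ratio was 1.92 in tumor and 4.16 in liver, for *Arntl* -1.01 and -4.18, for *Per3* 1.08 and 3.74, and for *Ciart* 0.72 and 4.85. For *Nr1d1* it was 1.21 in tumor and 0.42 in liver, and for *Hlf* 1.73 and 0.72. The livers formed the groups and both tissues come from the same mice, so no test was made of these pairs of values. In the late mice tumor *Dbp* was 26.8, 38.7, 36.8 and 207% of the liver level of the same mouse for M1, M2, M10 and M12, and in the early mice it was 64.6 to 2125%. In early mice M4 and M8, where liver *Per3* was lowest, tumor *Per3* was 2172 and 6739% of it. Tumor *Hlf* was 0.157 to 3.74% of the liver level in the 9 mice.

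**Figure D3:**
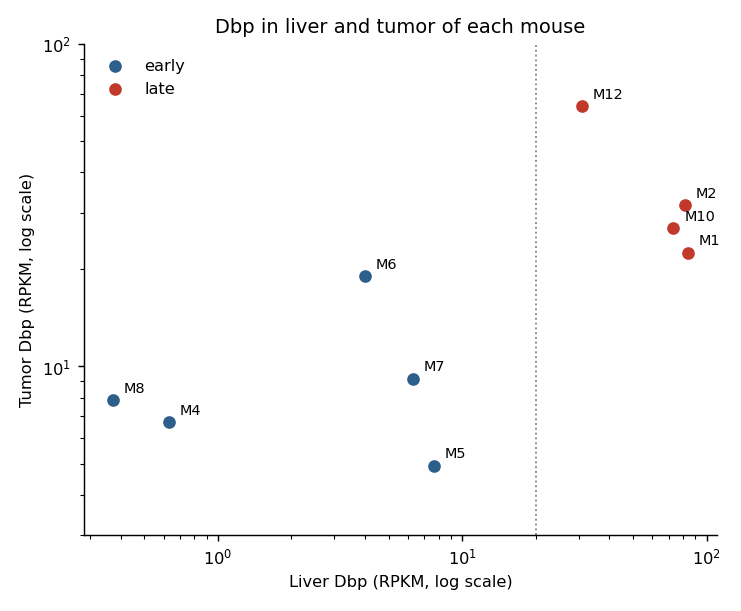
*Dbp* in the liver (horizontal, RPKM, log scale) and the tumor (vertical, RPKM, log scale) of each mouse, with the threshold of 20 RPKM dotted; late mice in red and early mice in blue. Late tumors lie at 22.5 to 64.1 RPKM and early tumors at 4.93 to 19.1 RPKM, and M12, with the lowest *Dbp* of the late livers, has the highest of all tumors.

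Transcripts of hepatocytes did not overlap between the groups either, although none of the markers passed edgeR's adjusted 0.05 (adjusted *p* = 0.127 for each). All 6 hepatocyte markers (*Alb*, *Apoa1*, *Ttr*, *Serpina1a*, *Fgb* and *Apoc3*, secreted liver proteins) were higher in every late tumor than in every early tumor, where 2.68% of all genes did not overlap. Their summed level was 15.1, 33.8, 152 and 298 RPKM in late tumors M1, M2, M10 and M12 and 7.33 to 11.0 RPKM in early tumors, and none of the 6 was at or below 3 counts in every tumor of a group. *Alb*, serum albumin, was 6.25, 15.01, 86.4 and 173 RPKM in late tumors and 2.97 to 4.55 RPKM in early tumors, a log2 fold change of 4.27 ± 0.79 (SE). Of the other markers, *Apoa1*, of high-density lipoprotein, and *Serpina1a*, a protease inhibitor with close copies in the genome, had log2 fold changes of 3.53 ± 0.64 and 3.41 ± 0.59 (SE). As a percent of the liver of the same mouse, *Alb* was 0.0189, 0.0727, 0.254 and 0.419% in late tumors M1, M2, M10 and M12 and 0.00841 to 0.0288% in early tumors.

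The share of the clock values that such an amount of liver RNA would make up was computed from the highest of the 6 markers' percents in each tumor, 0.0156 to 0.499%. At that percent, liver RNA would amount to at most 1.14% of tumor *Dbp*, 0.945% of *Tef*, 0.748% of *Per3*, 0.343% of *Nr1d2*, 0.159% of *Nr1d1* and 0.0456% of *Arntl* in any tumor. It would amount to up to 57.1% of *Hlf* in M10, and up to 19.3% of *Rora*. Other genes of the liver were at higher percents of the liver level in some tumors, *Hnf4a* at 0.541% in M2 and *Saa1* at 0.633% in M10. In M2 the 6 hepatocyte markers were at 0.0514 (*Ttr*) to 0.133% (*Fgb*). *Hnf4a* is also a gene of gut epithelium, and whether its RNA in M2 came from liver was not tested. With *Hnf4a*, *Pigr*, *Saa1* and *Hp* counted among the markers, a choice made after seeing the data, the shares reached 1.72% of *Dbp*, 1.42% of *Tef*, 1.13% of *Per3*, 0.682% of *Nr1d2*, 0.555% of *Nr1d1*, 0.0473% of *Arntl*, 87.6% of *Hlf* and 25.9% of *Rora*. With the tumors of M10 and M12 left out, a choice made after seeing the data, the log2 fold changes were 1.51 ± 0.42 (SE) for *Dbp*, 1.16 ± 0.21 for *Tef*, 1.06 ± 0.30 for *Per3*, 1.20 ± 0.43 for *Nr1d1*, 0.9999 ± 0.31 for *Nr1d2* and -0.71 ± 0.20 for *Arntl*, and 10 of 17 clock genes had an unadjusted *p* under 0.05 against 5.55% of all genes. Leaving out M10 and M12 did not remove the hepatocyte difference. All 5 hepatocyte markers tested then had an unadjusted *p* under 0.05, each higher in late tumors, with a median log2 fold change of 1.51. With the hepatocyte markers as a term in the fit, also chosen after seeing the data, 4 of 17 clock genes had an unadjusted *p* under 0.05, against 4.61% of all genes. The log2 fold changes were then 1.150 ± 0.663 (SE) for *Dbp*, 0.99 ± 0.33 for *Tef*, 0.93 ± 0.44 for *Per3*, 1.26 ± 0.59 for *Nr1d1*, 1.14 ± 0.43 for *Nr1d2* and -0.37 ± 0.27 for *Arntl*. All 6 markers separated late from early tumors, so this term is tied to the group itself. The SE of *Dbp* was 0.40 without the term and 0.66 with it. This fit cannot tell the group apart from the marker level, and no conclusion is drawn from its smaller count.

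**Figure D4:**
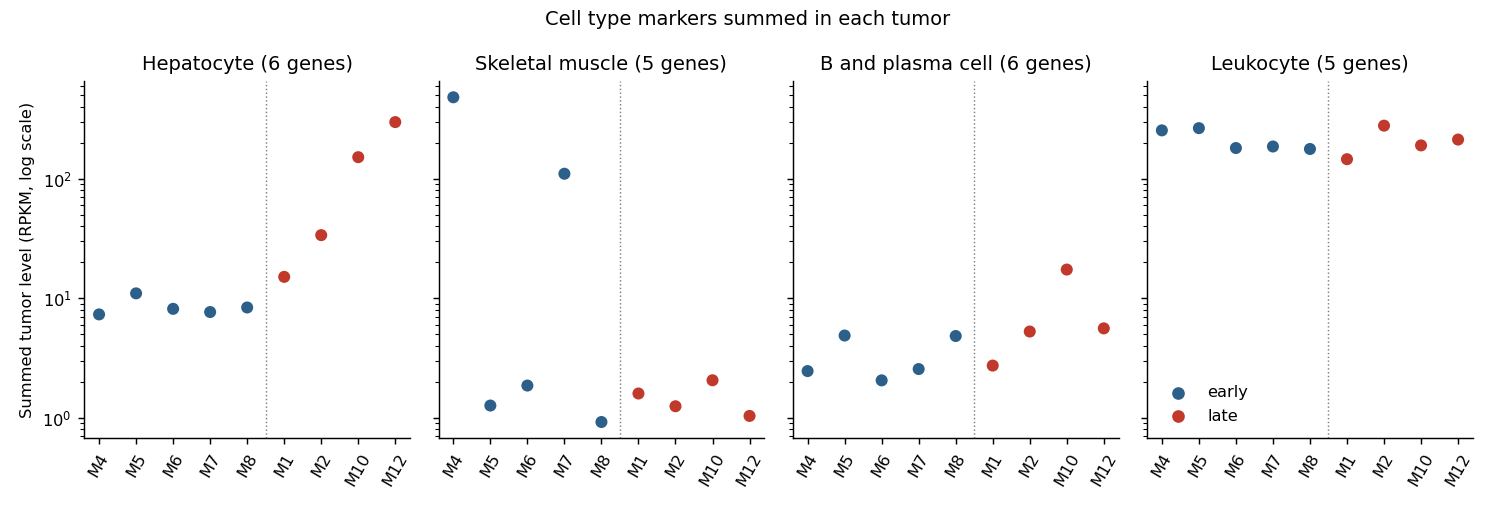
Summed RPKM (log scale, same axis in all panels) of 4 marker lists in each tumor, early tumors in blue and late tumors in red. Hepatocyte markers are highest in M10 and M12, skeletal muscle markers in early tumors M4 and M7, B and plasma cell markers in M10, and leukocyte markers overlap between the groups.

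Genes abundant in liver were frequent among the genes of smallest *p*. A gene was called liver-rich here when its mean in the 9 livers was at least 10 times its early tumor mean plus 0.1 RPKM, which held for 3.55% of genes tested. Of the 100 genes of smallest *p*, 71 were liver-rich and 88 were higher in late tumors. Of the 182 genes called by DESeq2, 102 were liver-rich, none of them among the 44 lower in late tumors. The label uses the early tumor mean, so genes low in early tumors meet it more easily than genes high there. Part of these counts, and of their direction, is therefore set by the label. The 5 genes of smallest *p*, chosen after their values were seen, were *Hnf4a*, *Pigr*, *Tef*, *Lama2* and *Saa1*. *Hnf4a*, a master transcription factor of liver and gut epithelium, was 0.0473, 0.561, 0.372 and 0.535 RPKM in late tumors M1, M2, M10 and M12 and 0.00406 to 0.0136 RPKM in early tumors, a log2 fold change of 5.25 ± 0.68 (SE). Every early tumor was at or under 3 counts of *Hnf4a*, the floor used here. The gene met the filter of 10 counts in 4 tumors only through the late tumors, so its fold change and *p* are given as values only. *Pigr*, the receptor that carries IgA across epithelia, was 0.161, 0.928, 1.02 and 1.61 RPKM in late and 0.038 to 0.103 RPKM in early tumors. *Saa1* and *Hp*, acute phase proteins of the liver, had log2 fold changes of 2.63 ± 0.41 and 1.88 ± 0.32 (SE), and *Saa1* has close copies in the genome that reads may not separate. The part of liver RNA in these differences was not tested further than by the fits above: without M10 and M12, *Pigr* was at 3.18 ± 0.60 (SE), *Saa1* at 1.84 ± 0.35 and *Alb* at 1.52 ± 0.29. With the hepatocyte markers as a term, *Pigr* was at 1.94 ± 0.68 (SE), *Saa1* at 0.88 ± 0.41, *Hp* at 0.63 ± 0.34 and *Alb*, itself one of the markers, at -0.45 ± 0.29. *Hnf4a*, at the floor in every early tumor, was at 4.05 ± 1.01 (SE) in that fit, beside 5.25 ± 0.68 without the term. No value of *Hnf4a* is given without M10 and M12, where the gene was not tested.

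Genes outside the liver and the clock with a small *p*, again chosen after their values were seen, included *Lama2* and genes with smaller differences. *Lama2*, the alpha 2 chain of laminin, was 2.41, 2.14, 0.584 and 1.70 RPKM in late tumors M1, M2, M10 and M12 and 0.207 to 0.444 RPKM in early tumors, a log2 fold change of 2.47 ± 0.37 (SE). It was called by edgeR without the tumor of M10, and without those of M10 and M12 (log2 fold change 2.88 ± 0.27, SE; edgeR adjusted *p* = 0.0253, beside 0.127 in all 9 tumors). The only other gene called without M10 and M12 was *Fgf7*, a growth factor made by stromal cells (log2 fold change 1.499 ± 0.117, SE, with edgeR adjusted *p* = 0.00976), at 19.2 and 21.9 RPKM in M1 and M2, 6.43 and 7.56 RPKM in M10 and M12, and 6.49 to 7.93 RPKM in early tumors. *Ak5*, an adenylate kinase, was 6.67 to 11.2 RPKM in late and 3.45 to 4.69 RPKM in early tumors (log2 fold change 0.98 ± 0.16, SE), and *Cox8a*, a subunit of cytochrome oxidase, was 347 to 441 RPKM against 254 to 306 RPKM (0.48 ± 0.09, SE). On the lower side were *Wnk1*, a kinase of ion transport, at 33.4 to 40.8 RPKM in late and 46.7 to 53.0 RPKM in early tumors (-0.46 ± 0.09, SE), *Rhob*, a small GTPase, at 44.4 to 50.5 against 62.6 to 70.9 RPKM (-0.43 ± 0.08, SE), and *Zfp800*, a zinc finger gene, at 2.67 to 3.10 against 3.73 to 4.33 RPKM (-0.48 ± 0.09, SE).

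Genes that act around the clock loop were compared next, beside the 6.93% of all genes with an unadjusted *p* under 0.05. None of 7 clock kinases and ligases tested, which mark PER and CRY proteins for decay, had an unadjusted *p* under 0.05, and the smallest was that of *Csnk2a1*, a casein kinase subunit, with a log2 fold change of -0.11 ± 0.08 (SE). Of 16 clock-controlled output genes tested, 3 had an unadjusted *p* under 0.05 and 8 were positive. *Tspan4*, a tetraspanin, was 54.0, 72.4, 65.0 and 76.9 RPKM in late tumors and 39.6 to 52.8 RPKM in early tumors, without overlap (log2 fold change 0.46 ± 0.11, SE), and *Klf11*, a Krüppel-like factor, was 2.40 to 3.86 against 1.90 to 2.62 RPKM. Daily signals that can act on tissues from outside were given by 3 lists. Of 17 glucocorticoid-induced, 15 temperature-responsive and 15 immediate early genes, 1 in each list had an unadjusted *p* under 0.05, and the medians were 0.17, -0.18 and -0.11. *Pdk4*, a pyruvate dehydrogenase kinase also abundant in muscle, was 1.61 and 0.62 RPKM in early tumors M4 and M7 and at most 0.0696 RPKM in the others, while *Chordc1*, a heat-induced chaperone partner, had a log2 fold change of -0.39 ± 0.16 (SE) and *Myc*, a growth regulator, one of 0.31 ± 0.14 (SE).

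**Figure D5:**
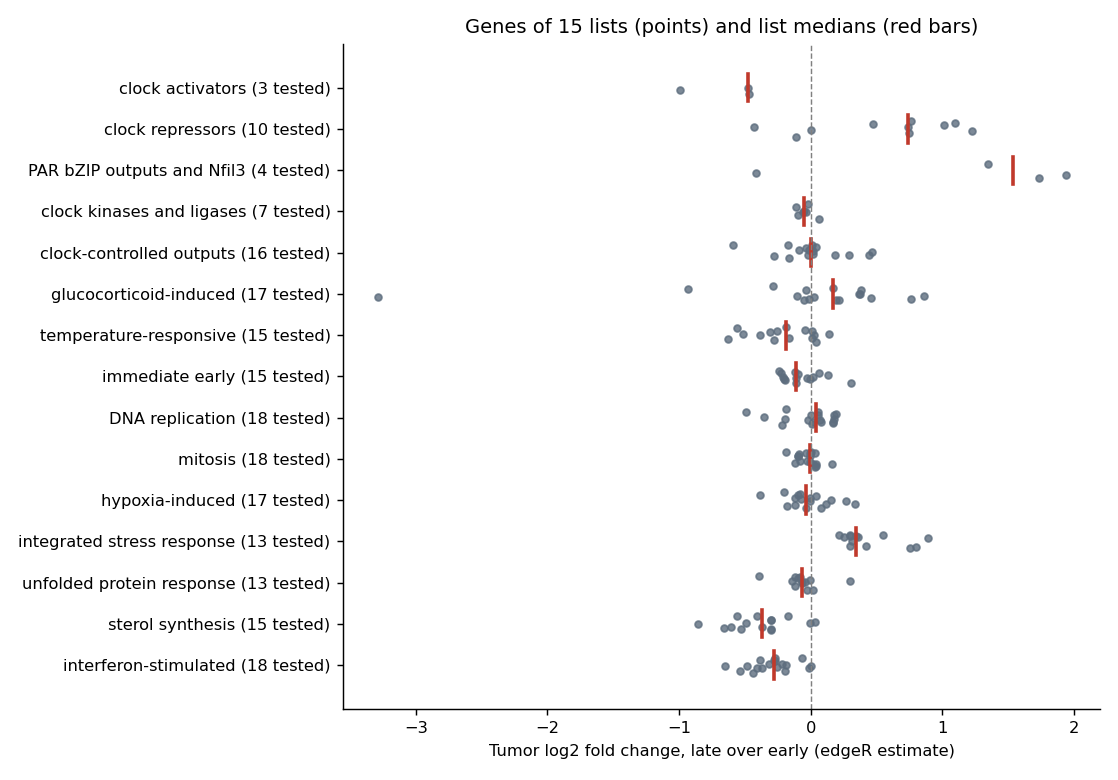
Tumor log2 fold change, late over early, of each gene tested (points) in 15 lists, with the median of the list (red bar) and 0 dashed. The PAR bZIP and clock repressor lists have the highest medians (1.54 and 0.74), the clock activators have -0.47, and the cell cycle lists lie around 0.

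Other programs of the tumor were compared in the same way. None of the 18 DNA replication, 18 mitosis or 17 hypoxia-induced genes had an unadjusted *p* under 0.05, and the list medians were 0.04, -0.01 and -0.04. The smallest *p* in each was that of *Ccne2*, a cyclin of S phase entry (log2 fold change -0.50 ± 0.23, SE), *Top2a*, a topoisomerase of dividing cells (-0.18 ± 0.15, SE), and *Eno1*, a glycolytic enzyme (0.27 ± 0.17, SE). In the integrated stress response, the ATF4 program for scarce amino acids, 13 of 13 genes were positive against 48.5% of all genes, 6 had an unadjusted *p* under 0.05, and the median was 0.34. *Psat1*, an enzyme of serine synthesis, was 116, 138, 121 and 96.5 RPKM in late tumors M1, M2, M10 and M12 and 72.5 to 102 RPKM in early tumors, and *Chac1*, which degrades glutathione, was 20.3, 23.2, 9.95 and 9.12 against 6.18 to 11.3 RPKM. No member was free of overlap. Without the tumor of M2 only 1 of the 13 had an unadjusted *p* under 0.05, against 5.83% of all genes. Without that of M7 it was 3, against 5.25% of all genes. In sterol synthesis, 14 of 15 genes were negative, 3 had an unadjusted *p* under 0.05, and the median was -0.37, or -0.19 without the tumor of M7 and -0.13 without those of M4 and M7. *Insig1*, which holds the sterol sensor in place, was 15.2 to 21.0 RPKM in late and 16.5 to 42.5 RPKM in early tumors, and *Hmgcs1*, an early enzyme of the pathway, was 16.4 to 29.3 against 20.6 to 51.7 RPKM. Early tumor M7 was the highest for both. The count of sterol genes with an unadjusted *p* under 0.05 was 0 without M2 or M12, 1 without M1, M4, M7 or M8, 4 without M5, 6 without M6 and 7 without M10. In these fits the share of all genes ran from 5.25% (without M7) to 8.51% (without M4), and 1 of the 15 sterol genes is 6.67%. Of 13 unfolded protein response genes 1 had an unadjusted *p* under 0.05, *Herpud1*, of ER-associated decay, with 0.30 ± 0.12 (SE), while 11 of the 13 were negative and their median was -0.07. Of 18 interferon-stimulated genes none did, although 17 were negative (median -0.28). *Rsad2*, an antiviral enzyme, was -0.48 ± 0.42 (SE), and the median of this list was 0.01 without the tumor of M5.

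Markers of the other cells of a tumor were read in 14 lists, since in bulk tissue fewer cells of a type and less RNA per cell cannot be told apart. No member of the leukocyte, neutrophil, macrophage and monocyte, T and NK cell, fibroblast, endothelial, adipocyte or red cell lists had an unadjusted *p* under 0.05. The members of smallest *p* were *Ptprc* (log2 fold change -0.20 ± 0.24, SE), *Mmp8* (-0.98 ± 0.64, where 6 of the 7 neutrophil genes tested were positive, with a median of 0.32), *Cd68* (0.18 ± 0.17), *Ncr1* (-0.50 ± 0.56), *Col3a1* (0.43 ± 0.20), *Cdh5* (-0.23 ± 0.23), *Fabp4* (-0.21 ± 0.37) and *Hba-a2* (0.82 ± 0.43), the last with a near-identical copy. The summed leukocyte markers were 146 to 279 RPKM in late and 178 to 266 RPKM in early tumors. B and plasma cell markers summed to 2.74, 5.27, 17.4 and 5.602 RPKM in late tumors M1, M2, M10 and M12 and 2.06 to 4.88 RPKM in early tumors, and 3 of 5 had an unadjusted *p* under 0.05 against 6.93% of all genes, led by *Mzb1* and *Cd79a*, but none without the tumor of M10, against 6.54% of all genes. *Mzb1*, of antibody-secreting cells, was 2.13 RPKM and *Cd79a*, of the B cell receptor, 2.08 RPKM in M10, where the other tumors were at or below 0.678 and 0.748 RPKM. *Igha*, the IgA heavy chain, was 13.1, 17.3, 41.7 and 39.0 RPKM in late and 3.44 to 12.01 RPKM in early tumors, a gene segment chosen after its values were seen.

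Markers of other tissues were high in single tumors. Skeletal muscle markers summed to 481 RPKM in early tumor M4 and 110 RPKM in early tumor M7, and to 0.922 to 2.06 RPKM in the other 7 tumors. *Tnnt3* and *Mylpf*, of the fast muscle fiber, had log2 fold changes of -6.60 ± 1.88 and -5.13 ± 1.60 (SE), and all 4 muscle genes tested had an unadjusted *p* under 0.05 in the 9 tumors and none did without M4 and M7, a choice made after seeing the data, while 9 of 17 clock genes did, against 6.11% of all genes. *Prss2*, a pancreatic trypsin with close copies in the genome, was 8.55 RPKM in early tumor M6 and 0.0194 to 0.377 RPKM in the other 8, and *Epcam*, an epithelial marker, was 1.88 RPKM in late tumor M2, 0.49 RPKM in M12 and 0.0168 to 0.104 RPKM in the rest. The 10 gut epithelium markers summed to 44.6 to 89.5 RPKM in late and 43.1 to 124 RPKM in early tumors. *Prss2* and *Epcam* were each the only member with an unadjusted *p* under 0.05, of 2 exocrine pancreas genes and 6 gut epithelium genes tested. In smooth muscle, with 2 of 6 genes under 0.05 against 6.93% of all genes, 1 in each direction, *Acta2* had a log2 fold change of 0.51 ± 0.13 (SE) and *Des*, also made in skeletal muscle, -1.35 ± 0.57 (SE), with early tumor M4 at 30.5 and M7 at 14.2 RPKM and the others at 2.81 to 6.92 RPKM.

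The tumor libraries held 47005276 to 70884436 counts, 54416920 to 70884436 in late and 47005276 to 57852641 in early tumors, and the ranges overlapped. Several low values rest on few counts, with a lowest count per tumor of 1 for *Hnf4a* and *Prss2*, 2 for *Epcam*, 4 for *Hlf*, *Pdk4* and *Tnnt3*, 5 for *Mzb1*, and 8 for *Pigr*.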

How the data were processed

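Poly(A) RNA of 9 primary tumors and of the livers of the same mice was sequenced from NEBNext Ultra libraries, a kit that is not labelled as marking strand. The submitters' processing notes name HISAT2, HTSeq 0.6.0 and mm10, without their roles, and the annotation and strand setting are not given in the sources used here. The authors deposited a raw count of each of 48897 genes in each library, and the RPKM computed from the count, the gene length and the library total. Recomputing RPKM changed no value by more than 1.75e-06 of itself.

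The 9 tumors were grouped by liver *Dbp* RPKM (late at 20 or more), paired by mouse number. Counts were tested with edgeR 4.0.16 in R 4.3.3 (TMM, quasi-likelihood, two-sided, Benjamini-Hochberg, 18332 genes with 10 or more counts in at least 4 tumors). Each SE is the estimate divided by the square root of its F value. The unadjusted *p*, the log2 fold changes and the adjusted *p* values come from this fit unless another is named. DESeq2 1.42.0, limma 3.58.1 on log2(RPKM + 1) and log2(RPKM + 0.1), other size factors, filters and covariates, and leaving out tumors were alternatives. A group at or under 3 counts was treated as at the floor. The fit was tested on simulated data. Each tumor comes from another mouse, so *p* values measure the spread between mice.

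The genes named are all members of the 3 clock lists, the 1 or 2 members of smallest *p* of each other list since none passed 0.05, and genes said to be chosen after their values were seen. The same rule would have named up to 10 rises, 10 falls and 5 smallest *p* among genes past 0.05 without overlap, but there were none. The members, the grouping and the lists were chosen with earlier results of these data known, and the lists come from general knowledge. A few list members are not reported here. Promoter sequences are from RefSeq, GRCm38.p6. Figures were drawn with matplotlib 3.10.9.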

Additional observations from a re-analysis of the deposited data

Results flagged for a closer look

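In 158 groups of 4 late or 5 early tumors, each a named gene or a summed marker list, 17 held a tumor far from the others by Dixon's rule, where chance flags about 1 group in 20. In the clock lists, *Nr1d2* was 17.0 RPKM in early tumor M6 where the other early tumors were at 6.66 to 9.24 RPKM, and *Tef* was 24.7 RPKM in late tumor M12 where the other late tumors were at 14.8 to 16.1 RPKM.

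Skeletal muscle markers summed to 481 RPKM in early tumor M4, with *Tnnt3* at 43.6 RPKM and *Mylpf* at 94.3 RPKM, where the next early tumor had 110, 11.0 and 26.6 RPKM. Exocrine pancreas markers summed to 18.5 RPKM in early tumor M6, with *Prss2* at 8.55 RPKM, and to 6.62 RPKM in late tumor M2, where the other tumors of each group were at or below 5.73 and 2.30 RPKM. Hepatocyte markers summed to 11.0 RPKM in early tumor M5 against 7.33 to 8.38 RPKM in the other early tumors, and *Pigr* was 0.103 RPKM there against 0.038 to 0.0553 RPKM.

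Late tumor M1 was apart for *Myc* (69.1 RPKM against 49.4 to 52.7 RPKM), *Eno1* (1448 against 989 to 1032 RPKM) and *Mmp8* (2.92 against 1.31 to 1.46 RPKM). *Cd79a* was 2.08 RPKM in late tumor M10 against 0.492 to 0.748 RPKM. Single low values were those of *Tspan4* in early tumor M8 (39.6 against 50.3 to 52.8 RPKM), *Saa1* in early tumor M4 (1.04 against 1.84 to 2.04 RPKM) and *Rhob* in late tumor M2 (44.4 against 49.8 to 50.5 RPKM).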

How the results depend on the processing

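Of the comparisons of 65 named genes with an alternative, 1473 in all, 1397 kept the direction and the side of 0.05, 50 kept the direction and were called where edgeR on all 9 tumors had not called them, and 26 changed sign. The number of genes called, 0 by edgeR, was 182 by DESeq2, 38 with no filter beyond 1 count, and 2 without M10 and M12, an alternative chosen after seeing the data. It was 0 to 69 with 1 tumor left out, the 69 without M1. Of these 69, 68 were higher in late tumors and 64 were liver-rich, a label met by 3.55% of genes tested in the main fit. The label uses the early tumor mean, so genes low in early tumors meet it more easily, and part of this count is set by it. Clock genes called, 0 by edgeR, were 6 by DESeq2, 1 with no filter and 0 to 2 with 1 tumor left out. Clock genes with an unadjusted *p* under 0.05, 11 in all, were 4 with hepatocyte markers as a term, also chosen after seeing the data, and 9 to 12 with 1 tumor left out. The share of all genes was 6.93% in the main fit, 4.61% with that term and 5.25 to 8.51% with 1 tumor left out. The hepatocyte markers separated the groups, so the fit with that term cannot tell the group apart from the marker level. Clock genes whose groups did not overlap, 6 in all, were 10 without M10 and M12, where 2 late tumors are left to overlap. They were 6 to 9 with 1 tumor left out. Fewer tumors make a lack of overlap easier for any gene. The share of all genes without overlap is not given for these smaller sets, so a higher count there cannot be read as a larger difference. The cause of these changes was not tested beyond this.

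Changes of sign on the log2 scale were these. With hepatocyte markers as a term, *Rora* was 0.14, *Bhlhe40* 0.34, *Bhlhe41* -0.0815, *Nfil3* 0.00843, *Rsad2* 0.0657, *Mzb1* -0.12, *Apoa1* -0.12 and *Alb* -0.45, the last 2 being among the markers used as the term. Without M10 and M12, *Bhlhe40* was 0.11 and *Bhlhe41* -0.0325, and without M4 and M7, *Bhlhe41* was -0.14 and *Fabp4* 0.0598. Per doubling of liver *Dbp*, *Bhlhe41* was -0.00770. *Bhlhe41*, near 0 throughout, was -0.000682 by DESeq2, -0.000740 with its size factors, -0.0245 and -0.0288 by limma with 1 and 0.1 added to RPKM, and -0.0357 with leukocyte markers as a term. With 1 tumor left out, *Bhlhe40* ranged from -0.40 to 0.0690, *Bhlhe41* from -0.18 to 0.15 and *Fabp4* from -0.42 to 0.0612. No paired analysis was possible because late and early tumors come from different mice, and each mouse number occurs once among the tumors. Genes such as *Hlf* and *Npas2* are limited by few counts.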
